A study of Arabidopsis thaliana with 12 samples.

Results

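The genes described here encode proteins of the small (40S) subunit of the cytosolic ribosome of Arabidopsis thaliana. They were taken from the count files by a list of 53 locus identifiers, out of 37184 genes counted in each library, and fall into 22 protein families named RPS after the subunit. Of these families, 11 had 2 genes on the list, 10 had 3 and 1, RPS15a, had a single gene. Only 14 of the 53 have a symbol of their own in the reference annotation, so the others are called by family and locus, as in the S2 gene AT1G58380. The choice did not use measured values.

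RNA-seq was made from plants of 4 genotypes, with 3 libraries each and 12 in all. The labels mark the 9 libraries of Col-0, xrn3-8 and dxo1-2 as re-analysed from earlier records, numbered in one run for Col-0 and xrn3-8 and in another for dxo1-2, and do not mark those of the double mutant. A difference between these sets of libraries and one of genotype cannot be told apart in comparisons across them, which are all comparisons here but that of xrn3-8 with Col-0. The wild type was Col-0, and the mutants were dxo1-2, xrn3-8 and the double mutant dxo1-2 xrn3-8, which carries both alleles. All plants were 21 days old and had been stratified for 2 days at 4 degrees C and grown on soil with 16 h of light and 8 h of dark; no treatment was given in the labels. DXO1 is the plant member of a family of RNA 5′-end processing enzymes, and XRN3 is a nuclear 5′-3′ exoribonuclease; the series' title concerns the maturation of ribosomal RNAs of cytoplasm and chloroplast when DXO1 is missing. Ribosomal RNA was removed from total RNA by a plant leaf kit, and the labels call the sample seedlings.

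Each 40S subunit holds 1 copy of each of its proteins, bound to the 18S ribosomal RNA. In plants each protein is encoded by several unlinked genes, so a family total is the sum over paralogues whose mRNAs share most of their coding sequence. Ribosomal protein genes are among the most highly expressed nuclear genes of growing tissue, are transcribed together with the genes for ribosome assembly, and are controlled in translation through the TOR kinase pathway. Single members are known in Arabidopsis from leaf and embryo phenotypes: PFL (an S18 gene) and RPS13A from pointed first leaves, RPS5A from embryo lethality and expression in dividing cells.

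Gene counts summed to between 60138933 and 81494915 a library. The 53 genes together held 316273 to 563672 of these counts, and all 53 passed the filter on low counts. Each targeted gene was lower than in Col-0 in both genotypes labelled with its mutant allele. DXO1 (AT4G17620) stood at 8.82 ± 0.172 CPM (counts scaled to a common library size with TMM factors; mean ± SD, n = 3) in Col-0, 9.91 ± 0.42 in xrn3-8, 1.52 ± 0.217 in dxo1-2 and 3.07 ± 0.0885 in the double mutant. XRN3 (AT1G75660) stood at 51.8 ± 0.375 CPM in Col-0, 21.6 ± 1.49 in xrn3-8, 59.0 ± 0.688 in dxo1-2 and 40.2 ± 3.4 in the double mutant. XRN3 transcript was thus closer to the wild type in the double mutant than in xrn3-8 (log2 change against Col-0 −0.37 against −1.26), and in both genotypes with xrn3-8 every library stood below every Col-0 library. DXO1 transcript was likewise higher in the double mutant than in dxo1-2 (log2 difference 1.01, edgeR quasi-likelihood test, adjusted p = 2.7e-05). Both targeted transcripts were thus less reduced in the double mutant than in the single mutants. Leaf markers were high in every library whereas the 4 root markers summed to at most 0.372 CPM and EXPA7, expressed in root hair cells, had 1 read in 1 xrn3-8 library and 0 in the other 11. The defining markers of root were thus nearly absent from samples labelled as seedlings.

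The 53 genes differed widely in level. Per kilobase of exon the median over genes was 105 CPM, from 0.246 to 462. The highest were the S23 gene AT5G02960 (462 CPM per kilobase over all libraries), the S24 gene AT5G28060 (295) and RPS6 (AT4G31700, 279). S23 lines the decoding centre, S24 belongs to the body of the subunit, and S6 is the textbook substrate of S6 kinase, which acts below TOR. At the other end, 3 genes had a mean under 5 CPM. RPSAb (AT3G04770) had 167 to 417 counts per library, the S8 gene AT5G59240 had 23 to 60, and the S23 gene AT3G09680 had 1 to 28. For the last 2, log2 changes rest on few reads.

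Plant ribosomal protein genes are known for 2 short promoter motifs, the telo-box (core AAACCCT) and the site II element (TGGGCC or TGGGCT). In the 250 bases before the annotated start, on either strand and counting overlapping matches, 33 of the 53 genes (62.3%) held a site II element, against 19.2% of 27437 protein-coding genes. The telo-box core was in 15 (28.3%) against 7.33%, both motifs were in 12 (22.6%) against 2.08%, and 17 (32.1%) held neither. The windows below run 150 bases up to the annotated start, 5′ to 3′ on the gene's strand, read from RefSeq's TAIR10.1 assembly and annotation (the counts carry no coordinates). They show the gene with most matches, the S23 gene with the highest level, the S5 paralogues, RPS6 and the genes that rose most in dxo1-2, and were chosen after the values were seen. Capitals mark the motifs on either strand, so that a site II element on the other strand reads GGCCCA or AGCCCA.
S20 gene AT3G45030 (chr3:16472410-16472559, minus strand): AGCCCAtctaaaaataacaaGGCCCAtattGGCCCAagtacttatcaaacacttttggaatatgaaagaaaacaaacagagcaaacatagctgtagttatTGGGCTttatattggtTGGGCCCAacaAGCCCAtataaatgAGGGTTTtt
S23 gene AT5G02960 (chr5:694516-694665, minus strand): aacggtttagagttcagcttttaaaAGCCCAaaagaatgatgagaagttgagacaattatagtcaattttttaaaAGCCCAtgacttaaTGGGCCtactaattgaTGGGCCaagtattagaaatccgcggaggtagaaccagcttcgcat
RPS5A (chr3:3779546-3779695, minus strand): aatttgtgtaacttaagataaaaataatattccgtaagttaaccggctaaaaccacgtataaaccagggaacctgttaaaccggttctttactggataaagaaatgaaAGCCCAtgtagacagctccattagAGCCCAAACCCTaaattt
RPS5B (chr2:15649472-15649621, minus strand): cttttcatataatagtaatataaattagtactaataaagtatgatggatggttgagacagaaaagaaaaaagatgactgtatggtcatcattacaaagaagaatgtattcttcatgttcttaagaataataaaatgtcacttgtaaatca
RPS6 (chr4:15347805-15347954, minus strand): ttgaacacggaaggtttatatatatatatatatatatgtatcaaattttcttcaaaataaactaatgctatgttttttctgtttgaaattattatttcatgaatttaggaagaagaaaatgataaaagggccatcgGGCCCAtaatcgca
S2 gene AT1G58380 (chr1:21688785-21688934, plus strand): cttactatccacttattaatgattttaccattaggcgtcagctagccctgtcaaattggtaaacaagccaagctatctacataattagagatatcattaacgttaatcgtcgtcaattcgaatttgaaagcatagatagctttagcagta
S16 gene AT2G09990 (chr2:3781178-3781327, plus strand): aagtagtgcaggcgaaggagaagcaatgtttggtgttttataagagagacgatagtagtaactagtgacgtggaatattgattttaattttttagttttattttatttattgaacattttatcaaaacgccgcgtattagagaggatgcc
The window of AT3G45030 holds 7 site II elements and 1 telo-box core, 2 of the elements overlapping on opposite strands. In RPS5A, the telo-box core shares 1 base with a site II element. The windows of AT1G58380, AT2G09990 and RPS5B hold neither motif. A match is a description of the letters and not of binding.

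**Figure D1:**
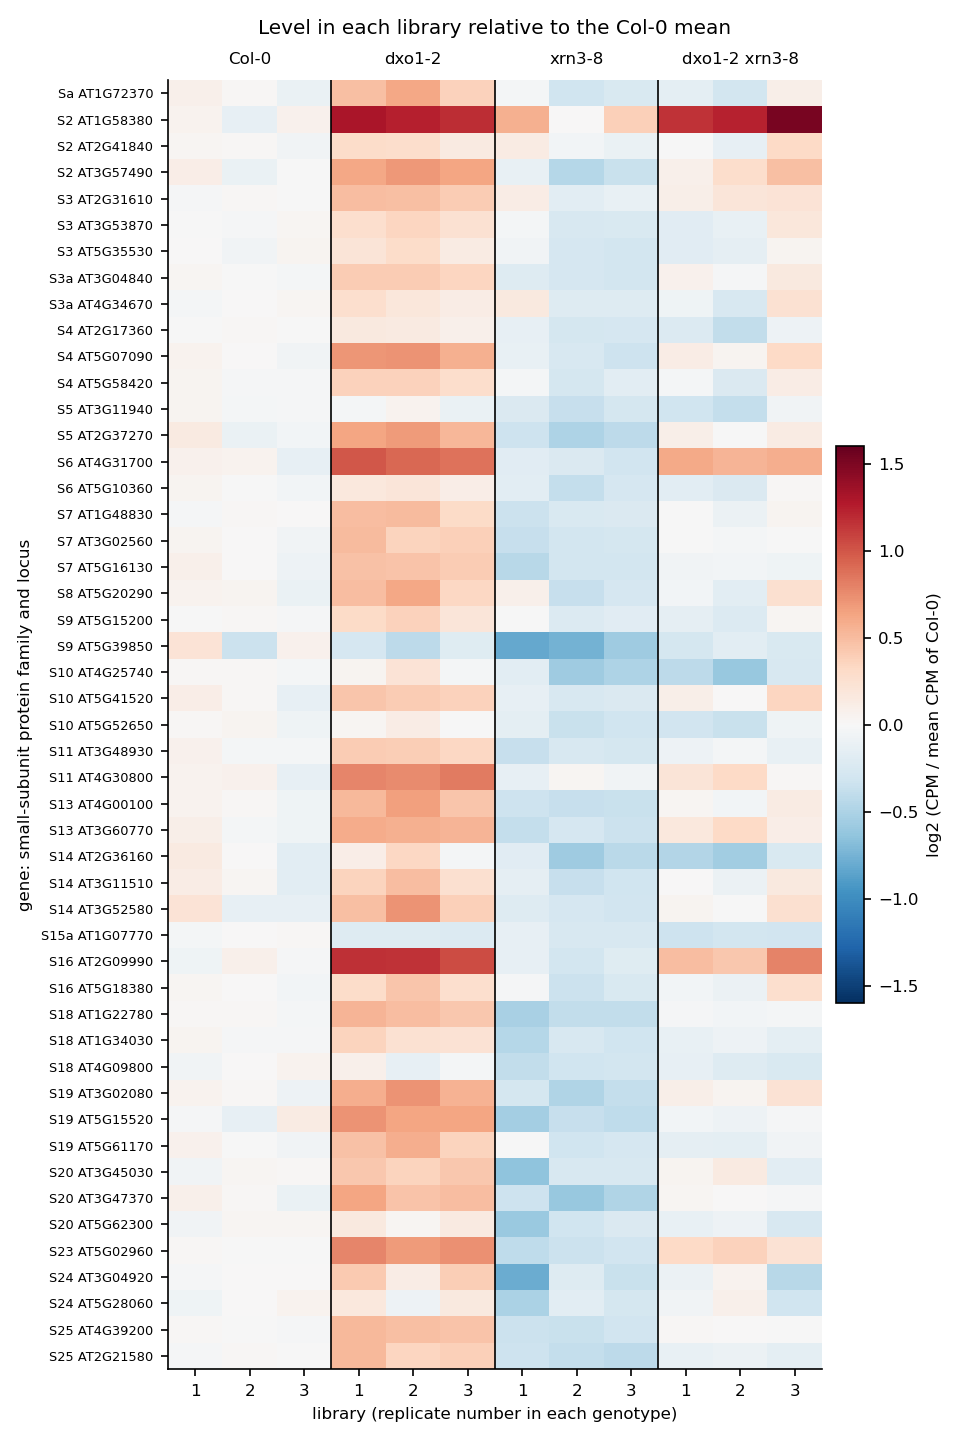
Level of 49 of the 50 genes with a mean of at least 5 CPM in each of the 12 libraries (columns, grouped by genotype), as log2 of CPM over the mean of the Col-0 libraries; red is higher and blue lower. The dxo1-2 columns are red for most genes, the xrn3-8 columns blue, and the double mutant columns mixed.

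In dxo1-2, small-subunit genes were higher than in Col-0. Of the 53, 35 were called higher (edgeR quasi-likelihood test, Benjamini-Hochberg adjusted p under 0.05 over all genes tested) and 1 lower. Over all 21974 genes tested, 21.5% were called higher and 20.7% lower. The median log2 change of the 53 was 0.41, against 0.01 over all genes, and in 42 of them every dxo1-2 library stood above every Col-0 library (28.3% of all genes). In bulk RNA, more cells rich in ribosomes and more mRNA per cell cannot be told apart. The share of nuclear gene counts that the 53 genes took rose from 1.1 ± 0.0351% (SD, n = 3) in Col-0 to 1.51 ± 0.0403% in dxo1-2, and the libraries did not overlap.

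In xrn3-8, small-subunit genes were lower than in Col-0. None of the 53 were called higher (1 at an unadjusted p under 0.05, and 0 by DESeq2) and 32 were called lower, against 16.3% and 18.1% of all genes; the median log2 change was −0.29. In 40, every xrn3-8 library stood below every Col-0 library, as in 24.2% of all genes. Under upper quartile scaling, 1 member was called higher and 21 lower, with a median of −0.22; that scaling moved the counts over all genes from 3585 higher and 3981 lower to 4613 and 3153. Without Col-0 replicate 1, 22 were called lower. The share of nuclear counts was 1.02 ± 0.0166%, a ratio of 0.935 to Col-0. This fall in share was smaller than that in CPM. TMM factors, which set CPM, were 0.956 to 1.04 in xrn3-8 and 0.863 to 0.892 in Col-0, so the size of the fall depends on the scaling.

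In the double mutant, the 53 genes lay between. Against Col-0, 7 were called higher and 8 lower, against 24.4% and 22% of all genes, with a median log2 change of −0.03. All 3 double mutant libraries stood above the Col-0 libraries in 7 genes and below them in 11, as against 28.9% and 26.6% of all genes. Without 1 library the count of lower genes was 3 to 7. The share of nuclear counts was 1.24 ± 0.0201%, a ratio of 1.14 to Col-0, although the median CPM did not rise; TMM factors, which set CPM, were 1.13 to 1.17 in the double mutant and 0.863 to 0.892 in Col-0.

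Set against the single mutants, the double mutant showed 42 of the 53 genes lower than dxo1-2 and 0 higher (15.5% and 16.4% of all genes). At an unadjusted p under 0.05, 0 were higher, as by DESeq2, and the median log2 difference was −0.39. Against xrn3-8, 27 were higher and 0 lower (22.9% and 20.5% of all genes), and in 27 all libraries stood above (26.2% of all genes). Again 0 were lower at an unadjusted p under 0.05 and 0 by DESeq2, with a median of 0.25. The mean of dxo1-2 was the highest of the 4 genotypes in 47 of the 53 genes, that of xrn3-8 the lowest in 47, and that of the double mutant lay between these 2 in 47. This order was not counted over all genes. The interaction, by which the double mutant departs from the added log2 changes of both single mutants, was called positive in 1 gene and negative in 2, against 12.2% and 8.67% of all genes. At an unadjusted p under 0.05, 1 was positive and 7 negative, and 44 of the 53 estimates lay below 0. The shares of all genes were not counted for these, though the median of all genes was 0.0053. The 53 genes share their libraries and are not independent of each other. On simulated counts the test called 16% of interactions of 0.58 in size, and 4.5% of its interaction calls were false. The genes changed in that simulation were not matched to the 53 in level, so this figure may not hold for them. Few calls do not by themselves show that the changes add. The median interaction over the 53 was −0.12, and −0.22 under upper quartile scaling. There 7 were called negative (2886 of all 21974 genes) and the median of all genes itself moved to −0.10. Without double mutant replicate 3, 5 were called negative. The comparisons with Col-0 share their Col-0 libraries and those of the double mutant share its libraries, so the counts are not independent of each other.

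**Figure D2:**
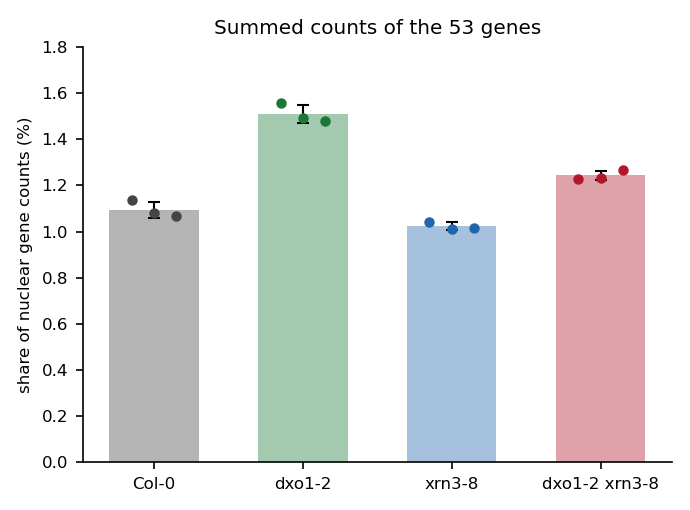
Summed counts of the 53 genes as a percentage of all counts of nuclear genes; bars are means over 3 libraries, error bars the SD, and points the libraries. The dxo1-2 libraries (1.48 to 1.56%) lie above and the xrn3-8 libraries (1.01 to 1.04%) below those of Col-0 (1.07 to 1.14%), and the double mutant (1.23 to 1.27%) lies between dxo1-2 and Col-0.

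Read gene by gene over the 3 comparisons with Col-0, 16 genes were called lower in xrn3-8, higher in dxo1-2 and neither in the double mutant. Another 12 were called only in dxo1-2, 4 were higher in dxo1-2 and the double mutant, and 3 were higher in both and lower in xrn3-8. A further 7 were lower in xrn3-8 and the double mutant, 5 only in xrn3-8, 5 in no comparison, and RPS15A was lower in all 3. Such patterns do not test the differences between the mutants. The share of all genes with each pattern was not counted, so these counts do not show whether a pattern is unusual.

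Proteins were also counted by place, the head of the subunit or its body and platform, as known from yeast and mammalian ribosomes. In dxo1-2, 15 of 21 genes of the 8 head families were called higher (median log2 change 0.41), as were 20 of 32 genes of the 14 other families (0.38). In xrn3-8, 14 of the 21 head genes were called lower (median −0.34) and 18 of the 32 others (−0.27). Over all genes, 21.5% were called higher in dxo1-2 and 18.1% lower in xrn3-8. The difference between these places was not tested.

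With paralogues summed, 18 of the 21 families with several genes were higher in dxo1-2 and 0 lower (21.4% and 20.6% of the features of that table). At an unadjusted p under 0.05, 0 of them were lower. In xrn3-8, 13 were lower (18.1%) and 0 higher (16.3%), with 0 higher at an unadjusted p under 0.05. In the double mutant, the S6 and S23 families were higher (24.4%) and 0 lower (22%), with 1 lower at an unadjusted p under 0.05. Against dxo1-2, 19 families were lower in the double mutant (15.4% of the features), and against xrn3-8, 10 were higher (22.9%); the interaction called 0 families in either direction, with 1 negative at an unadjusted p under 0.05 (12.2% and 8.7% of the features were called positive and negative). Family changes were narrower than those of genes: in dxo1-2 they ran from 0.18 to 0.73, the latter in S23. DESeq2 was not run on family sums.

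Among the listed genes of their families, those that rose most in dxo1-2 were minor members, apart from RPS6 and the S23 gene. The S2 gene AT1G58380, one of 3 on the list for a protein at the entry of the mRNA channel, had 7.74, 6.76 and 7.77 CPM in Col-0 and 18.4, 17.6 and 16.9 in dxo1-2. It had 11, 7.48 and 9.67 in xrn3-8 and 16.5, 17.5 and 21.3 in the double mutant. Both genotypes with dxo1-2 stood above all others. The log2 change was 1.25 ± 0.134 (SE, n = 3 against 3; adjusted p = 5.6e-06) in dxo1-2 and 1.31 ± 0.133 for the double mutant (adjusted p = 2.6e-06). Of its exonic 50-base stretches, 28.9% occur elsewhere in the nuclear genome, at 3 places, so its counts may lack reads that aligned to several places.

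The S16 gene AT2G09990, for a head protein that reaches the peptidyl site, had 24.4, 27.0 and 25.4 CPM in Col-0 and 57.7, 57.1 and 52.6 in dxo1-2. In xrn3-8 it had 23.3, 20.9 and 22.4, and in the double mutant 36.1, 34.6 and 44.6. The double mutant stood between, with no overlap with Col-0 or dxo1-2. The log2 change was 1.12 ± 0.0941 in dxo1-2 (adjusted p = 6.6e-07) and, for the double mutant against Col-0, 0.59 ± 0.0935 (adjusted p = 0.00015). Its paralogue AT5G18380 changed by 0.34 ± 0.105 in dxo1-2 (adjusted p = 0.0172). The coding sequences of the pair are 98.2% identical, and 15.5% of the stretches of AT2G09990 occur elsewhere, so reads of the pair could be split uncertainly.

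RPS6 (AT4G31700) had 264, 261 and 230 CPM in Col-0, 221, 214 and 204 in xrn3-8, 501, 476 and 458 in dxo1-2, and 384, 366 and 377 in the double mutant. The 4 genotypes did not overlap. It rose by 0.93 ± 0.0784 on the log2 scale in dxo1-2 (adjusted p = 6.9e-07) and, in the double mutant, by 0.58 ± 0.078 (adjusted p = 3.5e-05), and was 0.82 ± 0.0783 higher in the double mutant than in xrn3-8 (adjusted p = 2.3e-06). It was called lower in xrn3-8 (log2 change −0.24), a call lost under 6 of 13 other settings, where the change was −0.24 to −0.16. The other S6 gene, EMB3010 (AT5G10360), moved by 0.16 ± 0.0819 in dxo1-2 and was not called (adjusted p = 0.132).

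The S11 gene AT4G30800, for a protein of the body that joins early in assembly, had 5.89, 5.97 and 5.21 CPM in Col-0 and 9.77, 9.65 and 10.2 in dxo1-2, a log2 change of 0.79 ± 0.106 (adjusted p = 4.1e-05). In the double mutant it had 5.76 to 7.12 CPM and in xrn3-8 5.17 to 5.83, both overlapping Col-0. The S23 gene AT5G02960 moved in all 3 mutants. It had 300, 293 and 293 CPM in Col-0, 223, 234 and 238 in xrn3-8, 508, 473 and 490 in dxo1-2, and 368, 383 and 347 in the double mutant, with no overlap among genotypes. Its log2 change was 0.73 ± 0.0718 in dxo1-2 (adjusted p = 2.4e-06). In xrn3-8 it fell by 0.35 ± 0.0715 (log2 change −0.35, adjusted p = 0.00167), and the double mutant stood 0.31 ± 0.0714 above Col-0 (adjusted p = 0.00284). AT5G02960, like P40 (AT1G72370) and the S19 gene AT5G15520, is 1 of 10 genes here with an annotated gene on the other strand, and the use of strand in counting is not given in the sources used here.

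**Figure D3:**
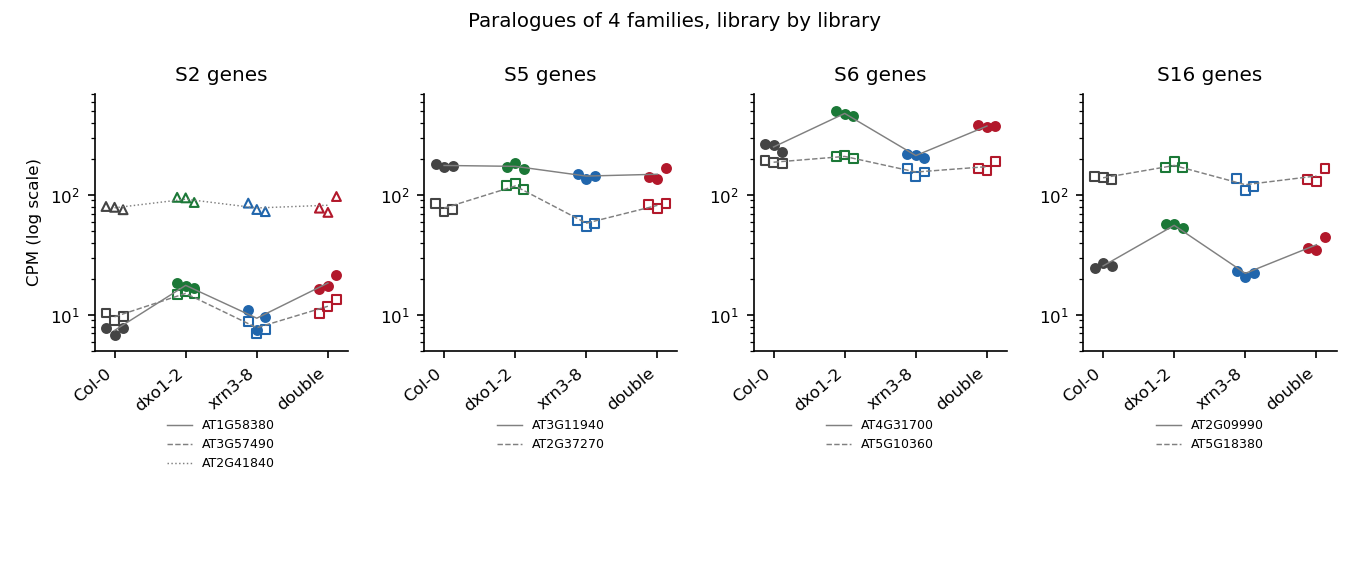
CPM on a log scale of the genes of the S2, S5, S6 and S16 families in each library; marker shapes are genes, colours genotypes, and lines join the means. The upper S6 gene and the lower S16 gene rise in dxo1-2 more than their paralogues, and in the S5 panel the lower gene rises while the upper one does not.

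RPS15A (AT1G07770), the sole gene of its family on the list, went the other way. Its protein binds the central part of the 18S RNA. It had 139, 142 and 143 CPM in Col-0, 129, 119 and 118 in xrn3-8, 123, 122 and 122 in dxo1-2, and 112, 115 and 115 in the double mutant. Every mutant library stood below every Col-0 library. The log2 change was −0.31 ± 0.0636 in the double mutant (adjusted p = 0.00124). It was −0.21 ± 0.0636 with dxo1-2 alone (adjusted p = 0.0167) and −0.22 ± 0.0636 with xrn3-8 alone (adjusted p = 0.017). The calls in dxo1-2 and xrn3-8 were lost under 7 and 6 of 13 other settings, among them the fit with no filter on low counts.

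In xrn3-8, the lowest log2 change among genes of at least 5 CPM was that of the S9 gene AT5G39850, whose protein takes part in decoding. It had 16.7, 11.3 and 15.1 CPM in Col-0, 8.13, 8.47 and 9.68 in xrn3-8, 11.9, 10.7 and 12.5 in dxo1-2, and 11.9, 12.7 and 12.1 in the double mutant. The xrn3-8 libraries lay below all others. The change in xrn3-8 was −0.71 ± 0.127 (adjusted p = 0.00064), and the interaction was 0.77 ± 0.178 (adjusted p = 0.00706). The abundant S9 gene AT5G15200 changed by −0.13 in xrn3-8 and was not called.

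Next were genes of head proteins. The S20 gene AT3G47370 had 46.7, 44.8 and 41.2 CPM in Col-0 and 35.0, 29.1 and 31.7 in xrn3-8 (log2 change −0.47 ± 0.0819, adjusted p = 0.00053). PFL (AT1G22780) had 110, 110 and 107 CPM in Col-0 and 75.8, 83.0 and 82.6 in xrn3-8 (−0.44 ± 0.0661, adjusted p = 0.00017). The S19 gene AT5G15520 had 8.72, 8.09 and 9.66 CPM in Col-0 and 6.04, 6.85 and 6.65 in xrn3-8 (−0.44 ± 0.0923, adjusted p = 0.00219). In each of these 3 genes every xrn3-8 library was below every Col-0 library. The S24 gene AT3G04920 fell by 0.43 ± 0.142 (adjusted p = 0.03), with xrn3-8 libraries at 91.3, 136 and 123 CPM and Col-0 at 156 to 158, and the call was lost under 5 of 13 other settings, upper quartile scaling among them.

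Both genes with the lowest log2 change in the double mutant among those of at least 5 CPM were not called in dxo1-2. The S10 gene AT4G25740, for a protein of the head near the mRNA entry, had 39.1, 39.1 and 37.6 CPM in Col-0 and 28.8, 25.3 and 32.4 in the double mutant, a log2 change of −0.42 ± 0.111 (adjusted p = 0.00661). The S14 gene AT2G36160, for a platform protein, had 106, 95.9 and 84.4 CPM in Col-0 and 69.1, 64.5 and 80.4 in the double mutant, a change of −0.42 ± 0.123 (adjusted p = 0.0125). In dxo1-2 these genes moved by 0.08 and 0.14 and neither was called. Both were also called lower in xrn3-8, where they stood near their double mutant levels. The xrn3-8 libraries had 34.2, 26.0 and 27.4 CPM of AT4G25740 and 84.1, 64.1 and 70.9 of AT2G36160. The call of AT2G36160 was lost without Col-0 replicate 1 or double mutant replicate 2. At the upper end in the double mutant stood AT1G58380, AT2G09990, RPS6 and AT5G02960, given above, and the S2 gene AT3G57490 at 0.29 ± 0.113 (adjusted p = 0.0488), whose libraries overlapped Col-0 and whose call was lost under 7 of 13 settings.

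The double mutant fell furthest below dxo1-2 in the S19 gene AT5G15520 (log2 difference −0.70 ± 0.0902, adjusted p = 5.7e-05). P40 (AT1G72370), the main Sa gene, stood 0.60 ± 0.109 lower on the log2 scale (log2 difference −0.60, adjusted p = 0.00081), with 301, 331 and 279 CPM in dxo1-2 and 194, 176 and 230 in the double mutant. The double mutant exceeded xrn3-8 most in AT1G58380 (0.98 ± 0.131, adjusted p = 4.4e-05). There were 2 negative interactions called, in AT4G30800 (−0.55 ± 0.15, adjusted p = 0.0177) and in the S19 gene AT5G61170 (−0.40 ± 0.127, adjusted p = 0.0375). The call of AT5G61170 was lost under 7 of 19 other settings, each without 1 library, with adjusted p from 0.0587 to 0.0832.

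The S5 pair, chosen after its values were seen, shows how paralogues differ. RPS5A (AT3G11940) had 182, 173 and 174 CPM in Col-0 and 172, 183 and 164 in dxo1-2, which overlap (log2 change −0.02 ± 0.0862). RPS5B (AT2G37270) had 85.5, 72.1 and 75.3 CPM in Col-0 and 120, 124 and 112 in dxo1-2, a rise of 0.61 ± 0.0816 (adjusted p = 3.9e-05). Both were called lower in xrn3-8, at −0.29 ± 0.0863 (adjusted p = 0.0164) and −0.42 ± 0.0817 (adjusted p = 0.00127). RPS5A was the steadier one in dxo1-2, and RPS5B moved more. The promoter window of RPS5A holds 3 motif matches and that of RPS5B holds none, but a link between motifs and change was not tested. In the double mutant RPS5A fell by 0.24 ± 0.0862 (adjusted p = 0.0317), a call lost under 6 of 13 settings.

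Over all 41 pairs of paralogues, the log2 ratio of the pair moved by a median absolute 0.099 in xrn3-8, 0.29 in dxo1-2 and 0.19 in the double mutant. Each was tested by a two-sided exact permutation test of 3 libraries against 3, which cannot go below p = 0.1, and over 123 tests the smallest adjusted value was 0.192, so no shift passed. The 2 largest shifts on well-counted genes were in the S2 family. The ratio of AT1G58380 to AT2G41840 moved by 1.24 on the log2 scale in the double mutant, and that to AT3G57490 by 1.02, with all double mutant libraries above those of Col-0. Of the counts of the 3 listed S2 genes, AT1G58380 took 7.8 ± 0.621% in Col-0, 9.83 ± 1.34% in xrn3-8, 14.1 ± 0.31% in dxo1-2 and 16.4 ± 0.786% in the double mutant. Reads of AT1G58380 that aligned to several places may be missing from these shares. The widest shift of all, −1.44 for the S23 genes AT3G09680 and AT5G02960 in xrn3-8, rests on a gene with 1 to 8 counts per library and overlaps.

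In xrn3-8 the shorter genes stood lower. Over the 50 genes of at least 5 CPM, Spearman's rho of exon length and log2 change was 0.512 and Pearson's r against log2 length 0.423. Over 13314 genes tested at that level they were 0.3 and 0.222. For mean CPM per kilobase in place of length, rho was −0.027 over the 50 genes and −0.284 over the 13314. The shares of all genes set beside the calls in xrn3-8 were not matched for length or level. These are correlations across genes, which are not independent replicates and share their libraries. Of the 22 genes under 1000 bases of exon, 20 were called lower (median −0.34), and of the 28 longer ones, 12 (median −0.21). Over all genes, 18.1% were called lower in xrn3-8, and the share among all genes under 1000 bases was not counted. In dxo1-2, rho of exon length and log2 change was 0.06 over the 50 genes and −0.223 over all genes. Split by promoter motif, with no test, the median in dxo1-2 was 0.36 for the 32 genes with a site II element, 20 of them called higher and 1 lower, and 0.51 for the 18 without, 14 of them higher. Over all genes, 21.5% were called higher and 20.7% lower in dxo1-2, and all genes with a site II element were not counted apart.

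**Figure D4:**
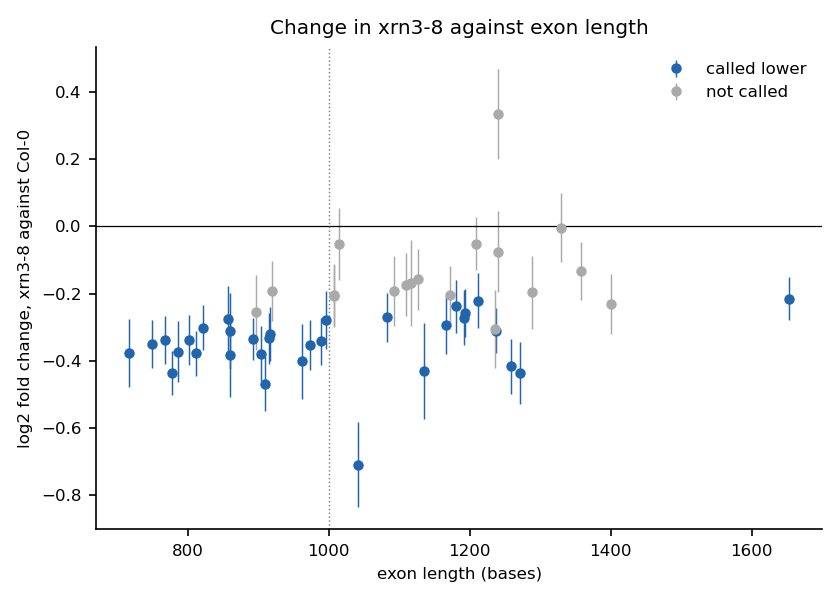
Log2 fold change in xrn3-8 against Col-0 (with SE) of the 50 genes with at least 5 CPM, against exon length in bases; blue points were called lower and grey points were not. Nearly all genes left of the dotted line at 1000 bases are blue.

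The other genes of the ribosome were counted from further lists. Beside their counts stand the shares of all genes, which were 21.5% higher and 20.7% lower in dxo1-2, 16.3% and 18.1% in xrn3-8, and 24.4% and 22% in the double mutant. Of 37 tested genes of other small-subunit proteins, 23 were called higher in dxo1-2 and 0 lower (0 at an unadjusted p under 0.05; median log2 change 0.39), 2 higher and 16 lower in xrn3-8 (−0.25), and 6 higher and 3 lower in the double mutant (0.04). Of 122 tested large-subunit genes, 103 were higher and 2 lower in dxo1-2 (0.49), 0 higher and 48 lower in xrn3-8 (0 higher at an unadjusted p under 0.05; −0.24), and 36 higher and 6 lower in the double mutant (0.11). Of 25 genes of ribosome biogenesis, 15 were higher and 2 lower in dxo1-2 (0.36), 2 and 6 in xrn3-8 (−0.08), and 12 and 2 in the double mutant (0.24). The 2 genes of this list furthest from 0 in the double mutant were FIB1, for the nucleolar methyltransferase fibrillarin (1.13 ± 0.102), and NUC-L2, a nucleolin (−1.40 ± 0.252). The large-subunit gene RPL3B fell by 1.72 ± 0.113 in the double mutant and by 1.75 ± 0.114 in dxo1-2, against the direction of most of its list.

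Ribosomal proteins of the plastid come from nuclear genes as well. Of 13 plastid small-subunit genes, 2 were higher and 1 lower in dxo1-2 (median 0.13), 0 higher and 9 lower in xrn3-8 (1 higher at an unadjusted p under 0.05; −0.29), and 0 higher and 10 lower in the double mutant (0 higher at an unadjusted p under 0.05; −0.43). Of 9 genes of the TOR pathway, 2 were higher and 2 lower in xrn3-8, 2 and 3 in dxo1-2, and 2 and 1 in the double mutant, shares of 11.1 to 33.3% that lie near those of all genes. The S6 kinase gene PK1 (AT3G08730) rose by 1.12 ± 0.095 in dxo1-2 and 0.95 ± 0.0947 in the double mutant and fell by 0.69 ± 0.0952 in xrn3-8. S6K2 (AT3G08720), the other S6 kinase gene, changed by −0.70 ± 0.133, −0.92 ± 0.133 and −0.79 ± 0.133 in the same order.

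Markers of tissue moved as well. The 11 genes of dividing cells summed to 58.1 to 66.9 CPM in Col-0, 91.5 to 104 in xrn3-8, 82.2 to 97.8 in dxo1-2 and 61.0 to 69.9 in the double mutant, with 7 of them called higher in xrn3-8, 5 in dxo1-2 and 2 in the double mutant, and 0, 0 and 1 lower (0 lower at an unadjusted p under 0.05 in the single mutants). Their summed level was above that of every Col-0 library in every library of both single mutants. The 4 leaf markers summed to 11162 to 12739 CPM in Col-0, 8327 to 11020 in xrn3-8, 8639 to 11030 in dxo1-2 and 5149 to 7209 in the double mutant, where all 4 were called lower. The 4 flower markers summed to at most 3.75 CPM and the 2 seed markers to at most 3.09 in any library. Plastid-encoded genes took 51.3 ± 0.465% of all counts in Col-0, 51.2 ± 2.22% in xrn3-8, 48.0 ± 0.491% in dxo1-2 and 43.7 ± 2.29% in the double mutant. The part of these differences in the changes of the 53 genes was not tested.

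**Figure D5:**
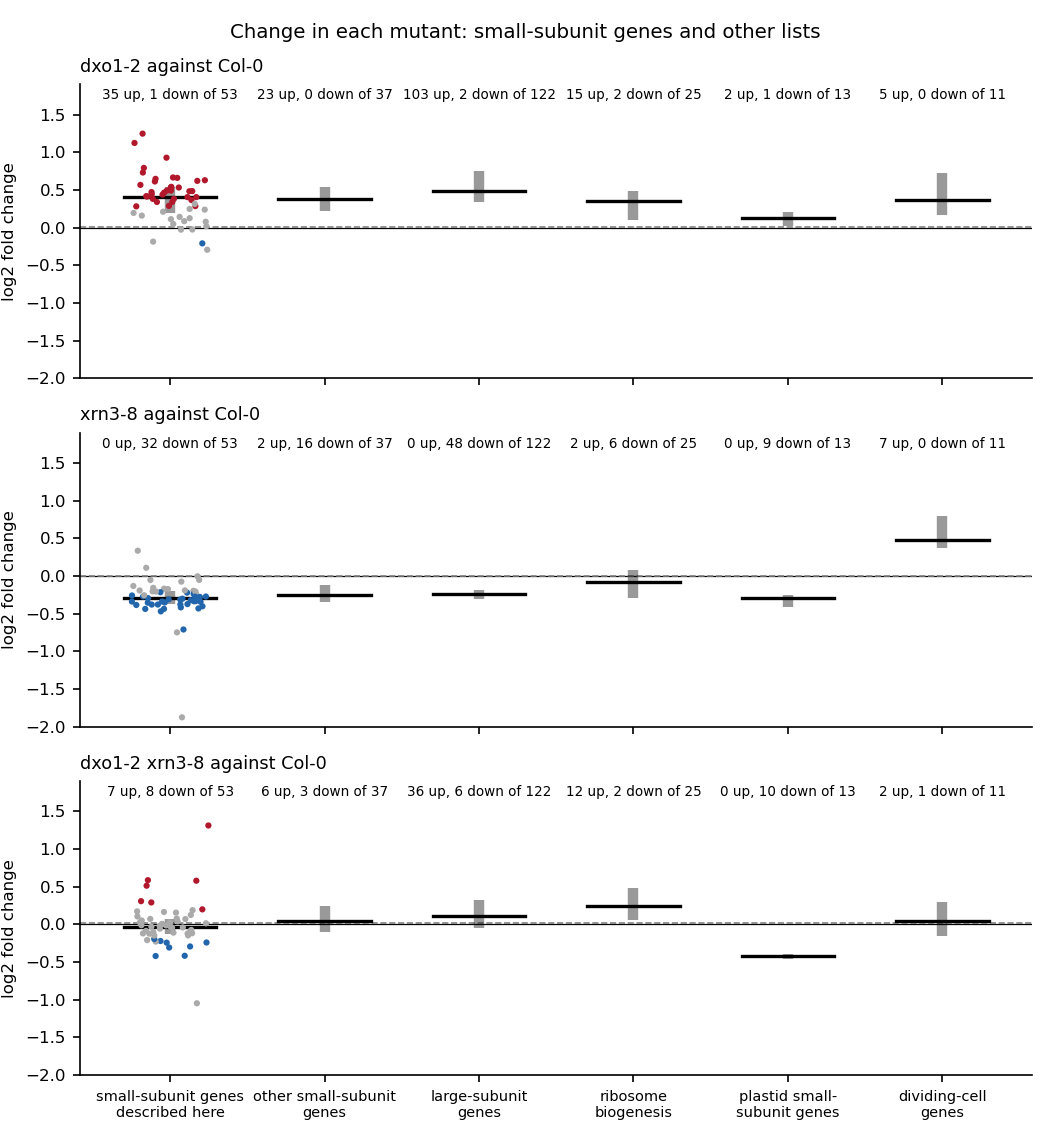
Log2 fold change of each mutant against Col-0: points are the 53 genes (red called higher, blue lower, grey neither), black lines the medians and thick bars the range between the quartiles of each list, with the dashed line at the median of all genes. The counts above give the calls; the medians of small- and large-subunit genes lie above 0 in dxo1-2 and below it in xrn3-8.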

How the data were processed

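Counts were deposited by the authors as whole-number reads per gene, 1 file per library and not normalised, per the file contents. The submitters' processing notes name HISAT2 2.0.4, SAMtools 1.1, HTSeq 0.6.0 and the build TAIR10, with no settings; the strand setting is not given in the sources used here. The 5 summary lines of each file stayed out: 6.99 to 11.1% of reads had no feature, 0.9 to 1.21% were ambiguous, 1.51 to 2.08% were not aligned and 9.8 to 11.2% were not unique. Locus identifiers were matched to RefSeq TAIR10.1, which gave symbols, exon lengths, promoters and coding sequences.

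The counts were tested with edgeR 4.0.16 in R 4.3.3 (TMM, filterByExpr at a count of 10 and a total of 15, quasi-likelihood F-test), with all 12 libraries in 1 fit, 1 coefficient per genotype and 6 contrasts, adjusted by Benjamini-Hochberg over 21974 genes. The test was tried on simulated counts first. The SE of a log2 change is its size over the square root of F. Family sums replaced their genes in a second table. DESeq2 1.42.0, other scalings, no filter, a replicate block and the removal of each library were alternatives. Between libraries of 1 genotype, chi-square per degree of freedom was 15.1 to 97.8, so none were duplicates. Replicate numbers were not taken to pair libraries. Precision rests on the spread between 3 libraries, named biological replicates by the submitters, and reads carried no molecular identifiers.

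The text names, for each mutant against Col-0, up to 5 called genes at either end with a mean of at least 5 CPM, up to 3 for the other comparisons, genes under 5 CPM, the 3 highest per kilobase, the 3 widest paralogue shifts, DXO1 and XRN3; others are marked as chosen later. Not every gene the rule names is described, and 1 gene is not reported here on its own. The list of genes, the other lists and the tests were chosen with earlier results of these data known, and the grouping by place in the subunit was added after the values were seen. Protein identity was planned and not analysed here; coding sequences were compared instead.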

Additional observations from a re-analysis of the deposited data

Results flagged for a closer look

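For 10 of the genes looked at singly, the change that dxo1-2 brings differed between plants with and without xrn3-8, by the interaction term of the fit across all genes (edgeR quasi-likelihood test, adjusted p under 0.05). Among the small-subunit genes these were AT4G30800 (S11, −0.55 on the log2 scale), AT5G61170 (S19, −0.40, a call lost under 7 of the 12 removals of 1 library) and AT5G39850 (S9, 0.77). The S11 gene rose by 0.79 in dxo1-2 against Col-0 and was 0.24 higher in the double mutant than in xrn3-8, the second of which was not called. The S9 gene changed by −0.29 in dxo1-2, which was not called, and was 0.48 higher in the double mutant than in xrn3-8. The S19 gene rose by 0.47 in dxo1-2 and stood 0.07 above xrn3-8 in the double mutant, the second not called. Over all genes, 12.2% had a positive interaction called and 8.67% a negative one. These small-subunit genes were named because their interaction was called, so their place here was fixed in advance.

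The others were the plastid small-subunit gene AT3G13120 (−0.39), NUC-L2 (AT3G18610, 1.30), the S6 kinase genes PK1 (AT3G08730, 0.52) and S6K2 (AT3G08720, 0.58), CYCB1;1 (AT4G37490, −1.07), and the targeted genes DXO1 (AT4G17620, 0.85) and XRN3 (AT1G75660, 0.71). CYCB1;1 is 1 of the 11 genes of dividing cells, of which 10 had a negative interaction called, against 8.67% of all genes.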

How the results depend on the processing

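No result reversed its direction under any setting tried, each result being compared on its own measure. For the double mutant against Col-0 the direction depended on the measure. The median log2 change of the 53 genes was −0.03, while their share of nuclear counts was 1.14 times that of Col-0. Of 45 values of named small-subunit genes past the threshold, 27 stayed past it under every setting and 18 were lost under at least 1. Under upper quartile scaling, xrn3-8 had 1 gene higher and 21 lower (4613 and 3153 of all 21974 genes), with a median log2 change of −0.22. The double mutant's median against xrn3-8 was 0.19. The interaction had 7 genes (2886 of all genes) and 2 families negative, with a median of −0.22. With nuclear genes only or with no filter, 1 gene was higher in xrn3-8 (3859 of all 21771 and 3842 of all 29093 genes). With no filter, the double mutant had 4 lower (4444 of all genes) and dxo1-2 had 0 (4013). With DESeq2's size factors, 1 family was lower in the double mutant. The cause was not tested. Of all gene counts, plastid-encoded ones included, the share of the 53 genes was 1.47 times that of Col-0 for dxo1-2 and 1.31 times for the double mutant. Leaving out 1 library gave 0 to 1 genes lower in dxo1-2, 0 to 1 higher in xrn3-8, 4 to 6 higher and 3 to 7 lower and 0 to 2 families lower in the double mutant, a median of −0.43 to −0.37 for the double mutant against dxo1-2, and for the interaction 1 to 5 genes and 0 to 1 families negative with a median of −0.17 to −0.075. The paralogue shift of AT3G09680 and AT5G02960 ran from −1.87 to −0.99. With the replicate number as a block, 35 genes were higher and 1 lower in dxo1-2 (4573 and 4360 of all 21974 genes). In xrn3-8, 29 were lower (3830 of all genes), and in the double mutant 5 were higher and 6 lower (5197 and 4677). The shares of all genes in the fits without 1 library are not given here. Same-numbered libraries correlated at −0.122 to 0.154 over 18 pairs, and 5 of 12 libraries correlated best with their own number, so the numbers were not taken as a pairing. Few reads limit AT3G09680 and AT5G59240.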
